A study of Homo sapiens with 12 samples.

Results

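The nuclear-encoded subunits of the respiratory chain and ATP synthase were followed at the RNA level in SHI-1 cells, an established acute myeloid leukemia line carrying the MLL-AF6 fusion. Members were chosen by gene name (NDUFA, NDUFB, NDUFC, NDUFS and NDUFV genes, SDHA to SDHD, UQCR genes, CYC1, COX4 to COX8 subunits and ATP5 genes). A member also needed a normalized count, that is a read count divided by a library factor, of at least 10 in at least 3 of the 12 libraries. Of 14866 genes listed and 13502 that passed this filter, 85 fit the names, and all 85 passed the filter. Of these, 76 are single-gene subunits, with 36 in complex I, 4 in complex II, 9 in complex III, 12 in complex IV and 15 in complex V. The other 9 are read-through genes, antisense RNAs, a pseudogene, a retrocopy, factors and a paralog, and they are described apart. Symbols are the older ones of the deposited tables, such as ATP5G1 for the gene now named ATP5MC1.

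Complexes I to IV pass electrons from NADH and succinate to oxygen through ubiquinone and cytochrome c, and all of them but complex II pump protons across the inner mitochondrial membrane. Complex V lets the protons return and uses that flow to make ATP. A few central subunits are made inside mitochondria from mitochondrial DNA, and those RNAs were not analysed here. All the subunits below are made from nuclear genes and imported into mitochondria. Acute myeloid leukemia cells are known to rely in part on oxidative phosphorylation, and niclosamide is known as an uncoupler of that process.

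The 4 groups had 3 libraries each, from separate experiments, and all cells were harvested after 16 h. DMSO cells received the solvent, DSF cells 0.3 µM disulfiram with 1 µM copper, NSM cells 5 µM niclosamide, and DSF+NSM cells all of these. Whether DMSO and NSM cells also received copper is not given in the sources used here. SHI-1 is 1 cell line, so libraries measure repeat cultures of the same cells, and the p-values measure only the spread between these libraries.

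Normalized counts summed to 13964000 to 25584000 per library, from an estimated 10207000 to 19031000 reads. Levels of 9 myeloid marker genes (PTPRC, SPI1, CD33, LYZ and others), all tested, were summed in each library. The sum was 66099 to 75314 in DMSO, 45008 to 51275 in DSF, 30136 to 36575 in NSM and 32893 to 33848 in DSF+NSM libraries. MPO, the myeloperoxidase of granulocyte precursors, was the largest single part of that sum in every library. The other 8 markers summed to 11938 to 12674, 14645 to 15692, 15683 to 17946 and 10859 to 13536 in the same order. The 9 markers did not move together. By limma at an adjusted p under 0.05, 4 were higher and 4 lower in NSM, with 25.4% and 23.7% of all genes. In DSF 2 were higher and 1 lower (11.9% and 5.95% of all genes), and in DSF+NSM 2 and 2 (28.3% and 24.5%). The sums alone thus do not show whether myeloid identity was kept. Of 14 markers of other cell types, 6 were listed and 4 tested, with summed levels of 108 to 415 over all libraries. In bulk RNA, fewer cells of a type and less RNA per cell cannot be told apart. The third NSM library stood apart from the other NSM libraries, with Spearman correlations over all genes of 0.939 to 0.950 against 0.980 to 0.996 for the other pairs within groups. Counts of subunits and of the comparison lists are given with and without it.

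The subunits made up 1.27% ± 0.0676 (SD, n = 3) of the summed normalized counts in DMSO, 1.07% ± 0.0340 after DSF, 1.01% ± 0.140 after NSM and 0.764% ± 0.0322 after DSF+NSM. The share of rRNA genes was 2.78%, 5.16%, 5.13% and 10.9% in the same order. With rRNA genes removed from the sums, the subunits made up 1.31%, 1.13%, 1.06% and 0.857%. The rRNA genes did not move together. RNR2 was at 83044 to 100295 in DMSO libraries and at 220904, 275272 and 790510 in NSM libraries. RNA28S5 was at 107807 to 238965 in DMSO libraries and at 459443, 310138 and 80879 in NSM libraries. The library sums were largest in DSF+NSM, so a change measured on normalized counts and a change measured after setting all sums equal are different quantities. With equal sums, the median change of all genes against DMSO was -0.74 under DSF+NSM, -0.25 under NSM and -0.049 under DSF on the log2 scale, and 0.030, 0.014 and 0.047 in the same order as deposited. Levels of complexes are therefore also given relative to the median of all genes, which this choice hardly moves. The median of the 76 subunits relative to all genes was -0.22, -0.19 and -0.012 as deposited, and -0.22, -0.19 and -0.021 with equal sums. Without the third NSM library the NSM value was -0.058.

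Promoters of 5 subunits that differ in response are shown first, as the 250 bases before the RefSeq start site in GRCh38.p14, 5′ to 3′ on the strand of the gene. Matches to 4 motifs are in capitals: NRF1 (GCGCA and GCGC with any base between), the ETS motif bound by GABPA (CCGGAAG), YY1 (AANATGGC) and the TATA box (TATAAA), each searched on both strands. NRF1, GABPA and YY1 are transcription factors known to bind many of these promoters. SDHA, the flavoprotein of complex II that oxidises succinate, had 4 NRF1 matches, and its RNA is among those lower in NSM. UQCRQ and ATP5J each had an ETS match, and ATP5J also a YY1 match and a TATA match on the opposite strand. ATP5G1 and ATP5G2 encode the same mature ATP synthase subunit c and changed differently in NSM, and neither had a match in the window.
SDHA, chr5:218070-218319, plus strand: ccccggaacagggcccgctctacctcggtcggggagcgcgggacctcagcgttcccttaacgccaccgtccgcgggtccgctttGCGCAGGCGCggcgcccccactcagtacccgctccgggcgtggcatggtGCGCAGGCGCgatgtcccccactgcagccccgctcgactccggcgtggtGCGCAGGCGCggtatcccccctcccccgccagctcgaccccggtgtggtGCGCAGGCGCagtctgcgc
UQCRQ, chr5:132866392-132866641, plus strand: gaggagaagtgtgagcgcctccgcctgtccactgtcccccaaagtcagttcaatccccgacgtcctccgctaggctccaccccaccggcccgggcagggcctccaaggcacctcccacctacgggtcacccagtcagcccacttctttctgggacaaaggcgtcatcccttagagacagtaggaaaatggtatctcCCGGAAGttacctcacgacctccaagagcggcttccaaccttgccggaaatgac
ATP5J, chr21:25735055-25735304, minus strand: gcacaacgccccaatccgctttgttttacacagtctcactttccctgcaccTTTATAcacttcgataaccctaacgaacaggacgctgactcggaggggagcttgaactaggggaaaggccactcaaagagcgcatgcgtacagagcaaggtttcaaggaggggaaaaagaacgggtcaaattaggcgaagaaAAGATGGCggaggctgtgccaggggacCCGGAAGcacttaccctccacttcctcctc
ATP5G1, chr17:48892537-48892786, plus strand: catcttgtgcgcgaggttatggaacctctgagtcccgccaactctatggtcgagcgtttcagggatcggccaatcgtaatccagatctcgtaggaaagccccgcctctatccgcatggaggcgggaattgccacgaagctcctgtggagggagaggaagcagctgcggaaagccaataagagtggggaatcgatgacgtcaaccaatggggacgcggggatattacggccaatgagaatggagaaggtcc
ATP5G2, chr12:53676084-53676333, minus strand, the first of 3 starts listed: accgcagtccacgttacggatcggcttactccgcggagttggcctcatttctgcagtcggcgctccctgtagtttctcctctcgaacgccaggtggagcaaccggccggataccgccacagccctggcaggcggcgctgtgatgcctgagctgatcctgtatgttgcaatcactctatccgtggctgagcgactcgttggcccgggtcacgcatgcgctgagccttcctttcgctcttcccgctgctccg

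RefSeq promoters of 300 bases (250 before and 50 after the start) were found for 62 of the 76 subunits. The NRF1 motif was in 24.2% of them, 11.8% of 9545 promoters of tested genes and 5.78% of all 35116 promoters in the table. The ETS motif was in 30.6% of subunit promoters, 19.6% of those of tested genes and 10.3% of all. YY1 stood at 35.5%, 10.5% and 6.58%, and TATA at 9.68%, 5.58% and 11.5%, in the same order. Among subunits called lower in NSM, 6 of 16 promoters held NRF1 and 3 of 16 held YY1. Among those called higher in NSM, 0 of 6 held NRF1 and 4 of 6 held YY1. Of the promoters of subunits called lower in DSF, 1 of 11 held NRF1 and 3 of 11 held YY1. In DSF+NSM, NRF1 was in 4 of 13 of those called lower and 0 of 6 called higher. YY1 was in 2 of 13 and 2 of 6 there. These are counts of letters in small groups and were not tested.

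Against the DMSO libraries, which the 3 treatments share, 45 of the 76 subunits passed the test in at least 1 comparison and 31 in none, while 70.5% of all genes passed in at least 1. The members of a complex did not share a direction. In DSF, complex V had the lowest median relative to all genes (-0.36 on the log2 scale), followed by complex I (-0.23), complex III (-0.16), complex IV (-0.090) and complex II (-0.076). In NSM, complex II was lowest (-0.36), then complex I (-0.20), complex V (-0.19), complex IV (-0.14) and complex III (0.079). In DSF+NSM, complex I was lowest (-0.25), complexes II, III and V were at -0.020, -0.023 and -0.021, and complex IV was at 0.22. The third NSM library had medians of -0.56 for complex I, -0.58 for complex III and -0.52 for complex IV, against -0.096 to -0.077, 0.13 to 0.25 and -0.049 to 0.10 in the other NSM libraries. Without it the NSM median was -0.10 for complex I, 0.20 for complex III, 0.030 for complex IV and -0.093 for complex V, so the sign for complex IV rests on that library, and without the first NSM library the complex III median was -0.061. In DSF+NSM, leaving out DSF+NSM replicate 3 moved complex I to -0.15, complex III to 0.043 and complex V to 0.022. These medians are descriptions with no test.

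**Figure D1:**
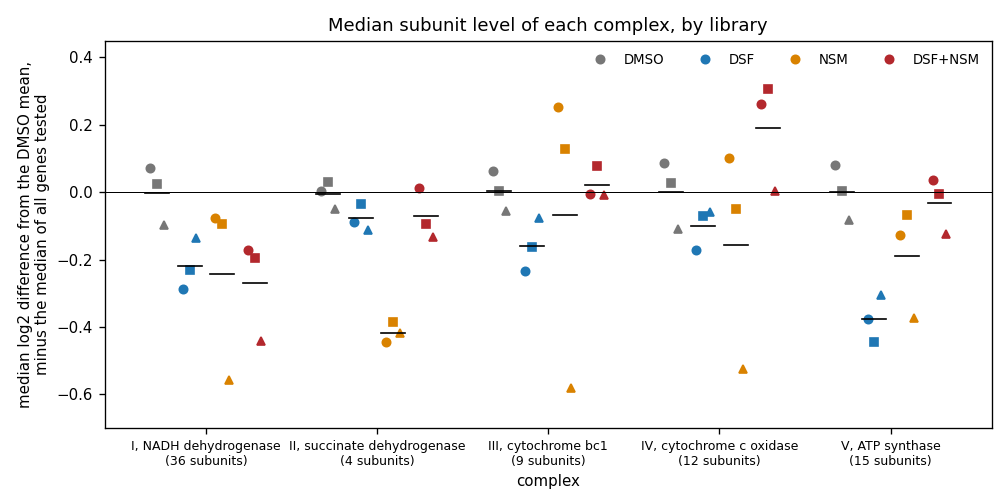
Median level of the subunits of complexes I to V in each library, relative to the median of all genes and to the mean of the DMSO libraries, on the log2 scale. Each point is 1 of 3 libraries per group (circle, square and triangle for replicates 1, 2 and 3), and lines are means of the 3 library medians. DSF libraries lie lowest in complex V (-0.45 to -0.31), and the third NSM library lies below the other NSM libraries in complexes I, III, IV and V.

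**Figure D2:**
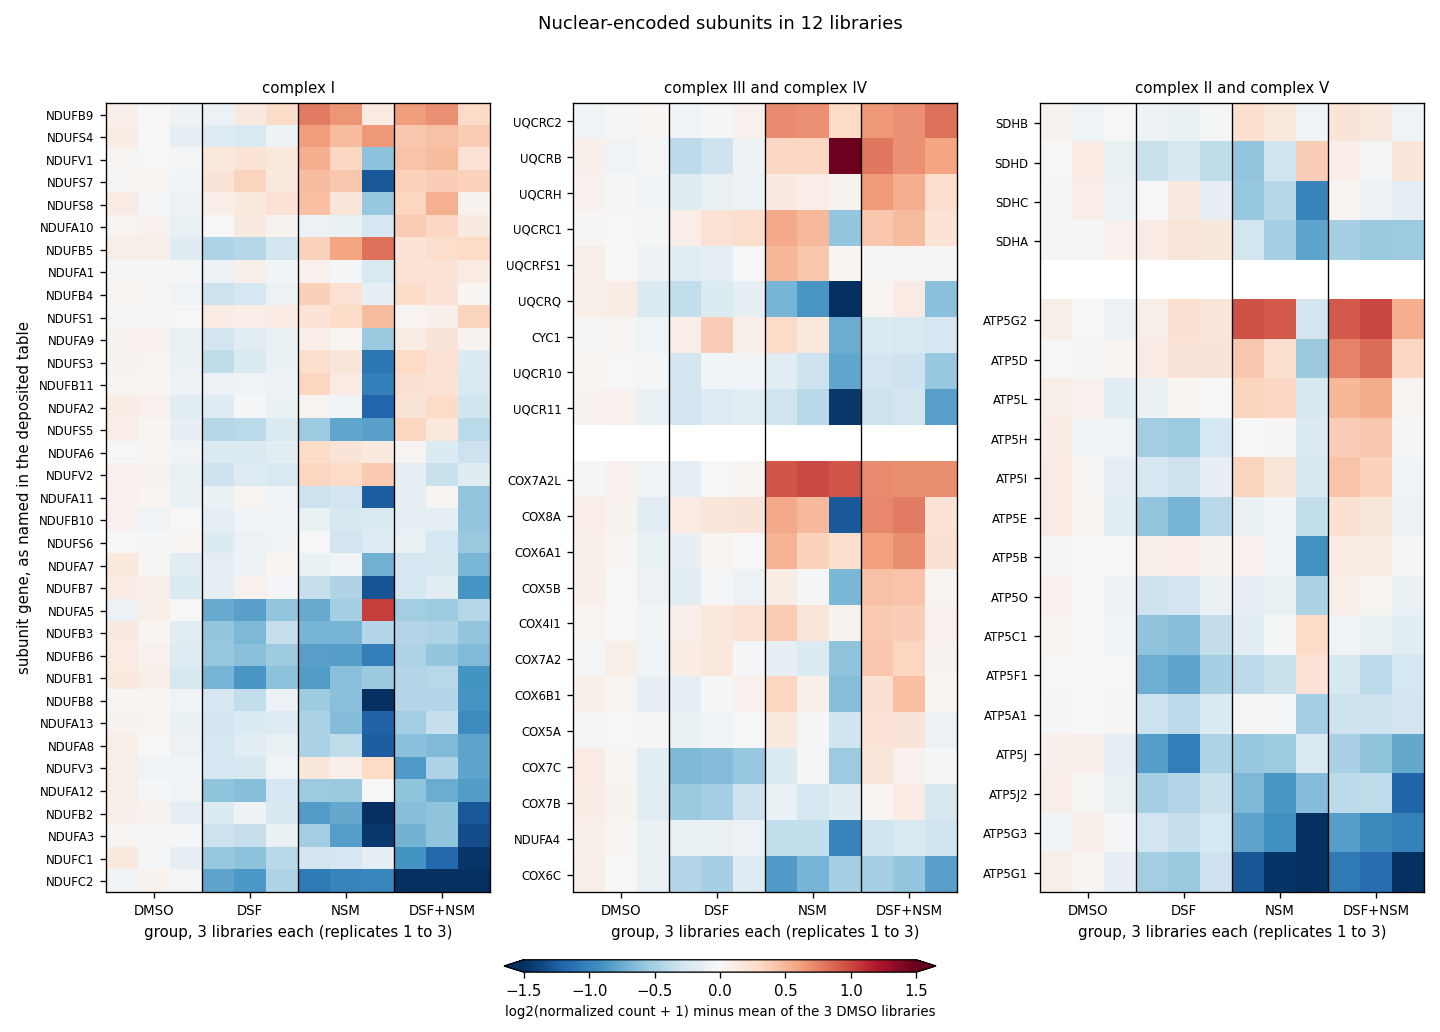
Level of the subunits in the 12 libraries as log2(normalized count + 1) minus the DMSO mean, with colour from blue (lower) to red (higher), capped at 1.5. Columns are libraries in their 4 groups and rows are genes ordered within each complex by their DSF+NSM change. NDUFC2, ATP5G1 and ATP5G3 are blue in NSM and DSF+NSM libraries, while COX7A2L and UQCRC2 are red there, and the third NSM column differs from its neighbours.

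In the fit of all 12 libraries, 12 subunits were called lower in DSF and 0 higher. The lowered RNAs were 5 NDUFB and NDUFC subunits of the complex I membrane arm (NDUFB1, NDUFB3, NDUFB6, NDUFC1 and NDUFC2), the complex IV subunits COX7B and COX7C, and 5 subunits of ATP synthase (ATP5J, ATP5F1, ATP5H, ATP5E and ATP5C1). The changes ran from -0.78 (ATP5J) to -0.45 (ATP5H) as log2 fold changes on the log2(normalized count + 1) scale. By limma over all genes with Benjamini-Hochberg adjustment, 5.95% of all genes tested were called lower in DSF and 11.9% higher, against 12 and 0 of the 76 subunits. At an unadjusted p under 0.05, 17 subunits were lower and 0 higher, and no other tool was run. The normalized counts of DSF and DMSO libraries did not overlap for 38 of the 76 subunits, lower in DSF, against 27.6% of all genes, and for 11 higher, against 33.4% of all genes. With only the DSF and DMSO libraries fitted, 35 subunits were called lower and 6 higher, so the lack of called rises depended on the fit. Shares of all genes are not given for that setting.

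In ATP synthase, the peripheral stalk that holds the catalytic head still had the most calls, with 3 of its 4 subunits lower in DSF. ATP5J, coupling factor 6 of that stalk, had 2208, 2207 and 1902 normalized counts in DMSO and 1182, 1022 and 1522 in DSF libraries, a log2 fold change of -0.78 ± 0.16 (SE; adjusted p = 0.00622). All DSF libraries were below all DMSO libraries. ATP5F1, subunit b of the stalk, had 4826, 4836 and 4796 in DMSO and 2892, 2777 and 3423 in DSF libraries (log2 fold change -0.68 ± 0.15, adjusted p = 0.0101). The DMSO libraries differed from each other by far less than from any DSF library. ATP5C1, the rotating gamma subunit, and ATP5E, the epsilon subunit beside it, fell by 0.53 and 0.57 on the log2 scale. ATP5B, the catalytic beta subunit, did not pass the test, with 10756, 10914 and 10943 in DMSO and 11559, 11607 and 11247 in DSF libraries. The F1 head thus held both called and uncalled subunits.

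In complex I, none of the 7 core subunits that carry electrons passed the test in DSF. NDUFS1, which holds iron-sulfur clusters, had 1350.5, 1317 and 1331 in DMSO and 1456, 1424 and 1455 in DSF libraries. It was higher in each DSF library than in any DMSO library, yet it was not called. NDUFB1, an accessory subunit of the membrane arm, had 1394, 1334 and 1064 in DMSO and 775, 687 and 817 in DSF libraries (log2 fold change -0.73 ± 0.16, adjusted p = 0.0105). NDUFC2, another membrane-arm subunit, had 1627, 1730.2 and 1647 in DMSO and 967, 916 and 1208 in DSF libraries (log2 fold change -0.70 ± 0.13, adjusted p = 0.00277). In complex IV, COX7C, a small structural subunit, went from 5551, 5264 and 4558 to 3190.1, 3241 and 3458 (log2 fold change -0.63 ± 0.14, adjusted p = 0.00892). Complexes II and III had 0 calls by limma in DSF, and 0 at an unadjusted p under 0.05.

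The DSF change followed base composition. Over the 76 subunits the Spearman correlation of the log2 fold change with the GC content of the transcript was 0.54, and over 12701 genes tested with annotation it was 0.48. The points are genes of the same 6 libraries and are not independent. The 12 lowered subunits had a median GC content of 41.5% (38.4 to 49.0) and the 64 others 50.6%. After removal of the trend with GC content and length across all genes, 26 subunits were called lower in DSF and 0 higher, against 16.5% and 11.2% of all genes. These 26 included 8 of the 12 lowered subunits named above, so the members called also changed with that removal. The part of base composition in the result was not tested further. Calls in DSF also rested on single libraries: of the 12, 3 remained without the second DSF library (6.75% of all genes called in either direction) and 6 without the first (8.62%), and 4 remained without the first or the second DMSO library (8.57% and 7.84%). There were 25 (2 higher, 23 lower) without the third NSM library, with 23.5% and 17.6% of all genes.

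**Figure D3:**
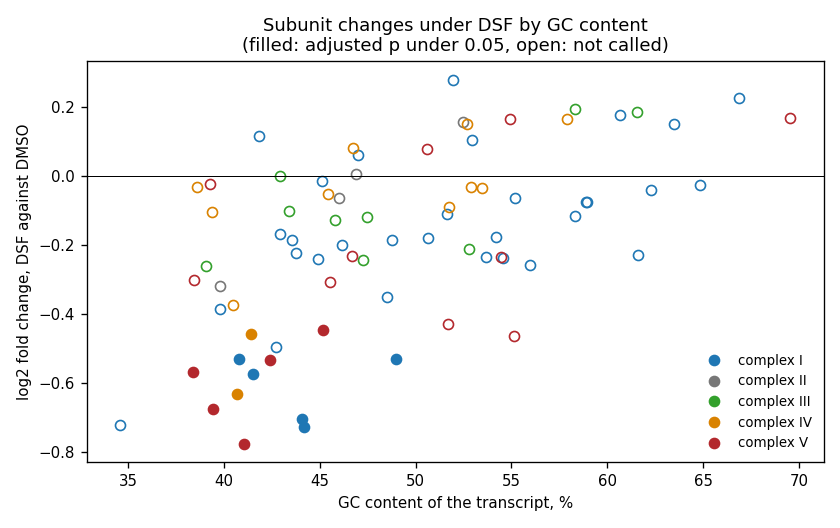
Log2 fold change of DSF against DMSO for each of the 76 subunits (vertical axis) against the GC content of its transcript in percent (horizontal axis), coloured by complex, with filled points for called subunits and open points for the others. The 12 subunits called lower lie at GC contents of 38.4% to 49.0%, and the Spearman correlation over the 76 is 0.54.

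In the fit of all 12 libraries, more subunits were called in NSM than in DSF, with 10 higher and 23 lower. The rises included NDUFS1, NDUFS4, NDUFB5 and NDUFB9 of complex I, UQCRC2 and UQCRB of complex III, and COX6A1 and COX7A2L of complex IV. The falls held 12 complex I subunits, SDHA and SDHC, the small complex III subunits UQCRQ, UQCR10 and UQCR11, COX6C and NDUFA4, and 4 subunits of ATP synthase, led by ATP5G1 and ATP5G3. Of all genes, 25.4% were called higher and 23.7% lower in NSM, so the subunits' 10 of 76 is below and their 23 of 76 above those shares. With equal sums the split was 2 higher and 40 lower (16.4% and 33.4% of all genes), and each of the 10 rises kept a value above 0. Without the third NSM library it was 21 higher and 24 lower (31.2% and 28.6% of all genes). Non-overlapping ranges were seen for 12 subunits higher and 27 lower in NSM, with 29.1% and 27.9% of all genes. With only the groups compared, 4 were called higher and 16 lower in NSM, against 6 and 35 in DSF. Which drug had more calls thus depended on the fit. Shares of all genes are not given for that setting.

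Within complex I, core and accessory subunits had different counts in NSM. Of the 7 core subunits, 3 were higher and 0 lower, and without the third NSM library 6 were higher. Of the 12 NDUFA accessory subunits 0 were higher and 4 lower, and of the 13 NDUFB and NDUFC subunits 2 were higher and 7 lower. Of the 4 NDUFS and NDUFV accessory subunits 1 was higher and 1 lower. Shares of all genes called in NSM were 25.4% higher and 23.7% lower, and the groups are small. This grouping by structure was made after the values were seen. NDUFS1 had 1540.4, 1613 and 1855 in NSM libraries, each above its DMSO range (log2 fold change 0.32, adjusted p = 0.0391). NDUFB5, a membrane-arm subunit, had 1655, 1651 and 1376 in DMSO and 1973, 2349 and 2747 in NSM libraries, the largest called rise in complex I (0.59 ± 0.14, adjusted p = 0.00358). NDUFB2, of the same arm, had 1061, 1044 and 909.7 in DMSO and 561, 589 and 224 in NSM libraries, the largest called fall there (-1.25 ± 0.31, adjusted p = 0.00501, and -0.80 without the third NSM library). Members of the same arm thus lay on opposite sides of DMSO.

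Complex II is the smallest of the complexes, and its 4 genes did not share a direction in NSM. SDHA had 1438, 1434 and 1533 in DMSO and 1216, 1042 and 847 in NSM libraries (log2 fold change -0.52 ± 0.13, adjusted p = 0.00581). SDHC, a membrane anchor at the ubiquinone site, had 1091, 1184 and 1033 in DMSO and 745, 819.9 and 555 in NSM libraries (-0.66 ± 0.15, adjusted p = 0.00323). Both were lower in every NSM library than in any DMSO library. SDHB, the iron-sulfur subunit, had 1673, 1547 and 1626 in DMSO and 1911, 1806 and 1562 in NSM libraries and did not pass the test. SDHD, the other anchor, had 1134, 1233 and 1048 in DMSO and 755, 924 and 1469 in NSM libraries, where the third library lay above DMSO and the others below it (-0.17, or -0.44 without it).

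In complex III, 1 of 2 core proteins was called higher in NSM, and of 5 small subunits 1 was higher and 3 lower. UQCRC2, a core protein, had 2341, 2433 and 2446 in DMSO and 3919, 3885 and 2957 in NSM libraries (0.56 ± 0.12, adjusted p = 0.00239). UQCRQ, a small subunit near the ubiquinone site, had 1803, 1836 and 1478 in DMSO and 1046, 926 and 504 in NSM libraries (-1.11 ± 0.26, adjusted p = 0.00359, and -0.79 without the third NSM library). The ranges of both genes were apart from DMSO, in opposite directions. UQCRB, also a small subunit, had 4512, 4124 and 4251 in DMSO and 5319, 5325 and 11869 in NSM libraries (0.70 ± 0.24, adjusted p = 0.0322). The size of that rise rests on the third NSM library, and without it the change was 0.31.

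In complex IV, COX7A2L gave the largest called rise of any subunit in NSM. It belongs by name to the COX7A subunits and is known to join complex III and complex IV into supercomplexes. It had 2184, 2318 and 2154 normalized counts in DMSO, 2039, 2207 and 2270.1 in DSF, 4272, 4401 and 4260.0 in NSM and 3632, 3587 and 3601 in DSF+NSM libraries. The change was 0.96 ± 0.10 in NSM (adjusted p = 7.83e-06) and 0.97 without the third NSM library. Its paralog COX7A2 had 1755, 1891 and 1698 in DMSO and 1640.4, 1545 and 1170.0 in NSM libraries and was not called (-0.31, adjusted p = 0.0985). COX6C, a small structural subunit, had 2487, 2351 and 2177 in DMSO and 1294, 1441 and 1651 in NSM libraries (-0.68 ± 0.14, adjusted p = 0.00133). COX4I1, the largest nuclear-encoded subunit of the complex, had 5893, 5702 and 5538 in DMSO and 7433, 6497 and 5912 in NSM libraries and was not called. The paralogs COX4I2, COX6A2, COX6B2, COX7A1 and COX8C were not analysed here.

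ATP synthase subunit c forms the membrane ring that protons turn, and 3 genes, ATP5G1, ATP5G2 and ATP5G3, encode the same mature protein. ATP5G1 had 1572, 1514 and 1364 normalized counts in DMSO, 1033, 1004 and 1191 in DSF, 608, 532 and 240.4 in NSM and 709, 671 and 469.7 in DSF+NSM libraries. The DSF, NSM and DSF+NSM libraries were all below DMSO, with a log2 fold change of -1.79 ± 0.28 in NSM (adjusted p = 0.000264, and -1.38 without the third NSM library) and -1.29 ± 0.28 in DSF+NSM (adjusted p = 0.00227). In DSF the change of -0.46 was not called (adjusted p = 0.284). ATP5G3 had 3584, 3879 and 3604 in DMSO, 3016, 2901 and 3067 in DSF, 2134, 1948 and 1228 in NSM and 2081, 1879 and 1832 in DSF+NSM libraries. Its log2 fold change was -1.10 ± 0.17 in NSM (adjusted p = 0.000235) and -0.94 ± 0.17 in DSF+NSM (adjusted p = 0.000619). ATP5G2 had 4883, 4599 and 4329.6 in DMSO, 4877, 5386 and 5230.3 in DSF, 8893, 8698 and 3755 in NSM and 8735, 9183 and 6719 in DSF+NSM libraries. It was called higher in DSF+NSM (0.82 ± 0.26, adjusted p = 0.0191), and not in NSM (0.53, adjusted p = 0.116), where the third library lay below DMSO and the value without it was 0.94.

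To compare levels between the 3 genes, counts were divided by the GENCODE transcript length of each gene. These lengths were 646 bases for ATP5G1, 632 for ATP5G2 and 2587 for ATP5G3, and the size of each share depends on them. ATP5G1 gave 20.8% ± 0.394 (SD, n = 3) of the subunit c RNA per kb in DMSO, 15.1% ± 1.22 after DSF, 5.60% ± 0.306 after NSM and 6.46% ± 0.485 after DSF+NSM. ATP5G2 gave 66.2% ± 0.741, 74.3% ± 1.57, 88.7% ± 1.11 and 88.4% ± 0.681 in the same order, and ATP5G3 13.0% ± 0.848, 10.5% ± 0.555, 5.70% ± 1.13 and 5.15% ± 0.706. The NSM and DSF+NSM libraries overlapped in the shares of ATP5G2 and ATP5G3, and for ATP5G1 the NSM range (5.37% to 5.95%) lay just under the DSF+NSM range (6.03% to 6.98%). DMSO and DSF libraries overlapped with no other group in any of the shares. The third NSM library gave 5.48%, 87.5% and 6.99% for ATP5G1, ATP5G2 and ATP5G3, where the value for ATP5G3 was above those of all other NSM and DSF+NSM libraries and the value for ATP5G2 was the lowest of the NSM libraries. A library factor cancels in a share, so this shift did not depend on scaling. The shares are descriptions with no test.

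**Figure D4:**
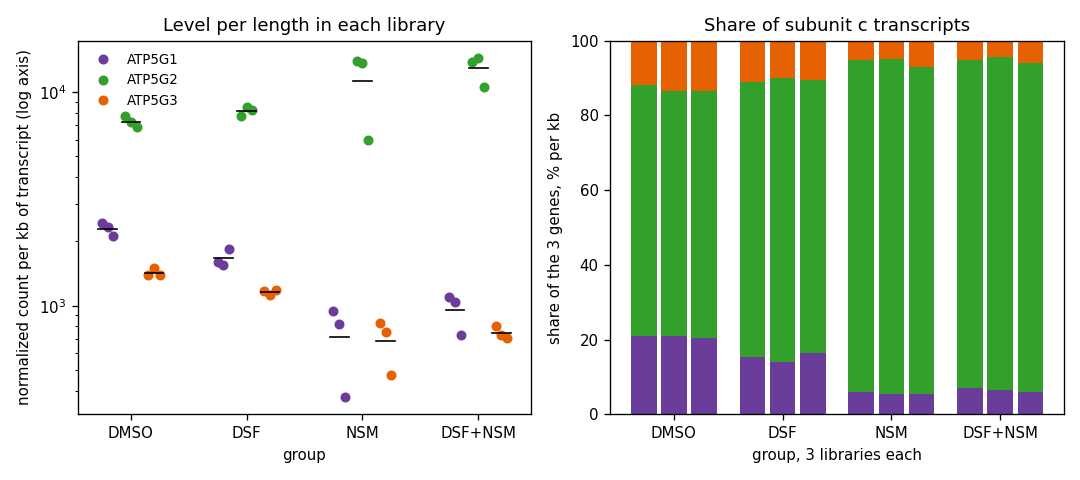
Left, normalized count per kb of transcript of ATP5G1, ATP5G2 and ATP5G3 on a log axis, with a point for each of 3 libraries a group and a line for the group mean. Right, stacked bars with the share of each gene in their sum, in percent, for each of the 12 libraries. The share of ATP5G2 is 65.4% to 66.9% in DMSO and 87.5% to 89.7% in NSM libraries.

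DSF+NSM against DMSO gave 9 higher and 17 lower subunits, with 28.3% and 24.5% of all genes called higher and lower. The 9 were NDUFS4 and NDUFB9 of complex I, UQCRC2, UQCRB and UQCRH of complex III, COX6A1 and COX7A2L of complex IV, and ATP5D and ATP5G2 of complex V. With equal sums 8 of the 9 were below 0 and ATP5G2 was at 0.039, so their direction holds only relative to other genes, and all 9 stayed above the median of all genes. That scaling gave 0 higher and 64 lower of 76 subunits, with 11.4% and 56.1% of all genes. The 17 falls held 11 subunits of complex I, SDHA, COX6C and 4 of complex V. Without the third NSM library, which enters through the shared spread, 21 were higher and 30 lower (35.2% and 32.4% of all genes). Non-overlapping ranges were seen for 19 higher and 30 lower, with 36.4% and 32.9% of all genes.

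The largest fall was in NDUFC2, with 473, 472 and 506 normalized counts in DSF+NSM and 796, 833 and 845 in NSM libraries. No ranges overlapped between any of the 4 groups. The log2 fold changes against DMSO were -1.02 ± 0.13 in NSM (adjusted p = 4.1e-05) and -1.78 ± 0.13 in DSF+NSM (adjusted p = 2.93e-07). DSF+NSM was also lower than DSF (-1.08, adjusted p = 3.75e-05) and than NSM (-0.77, adjusted p = 0.000503). NDUFC2 shares 428 exon bases with the read-through gene NDUFC2-KCTD14, listed at 0.00 to 128 normalized counts, so reads could be split between them. NDUFC1, another membrane-arm subunit, had 991, 882 and 819.8 in DMSO and 481, 396 and 325 in DSF+NSM libraries (-1.18 ± 0.15, adjusted p = 4.73e-05). SDHA had 1595, 1665 and 1647 in DSF, all above DMSO, and 1037, 1000.3 and 1003 in DSF+NSM libraries, all below it (-0.53 ± 0.13, adjusted p = 0.00434).

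**Figure D5:**
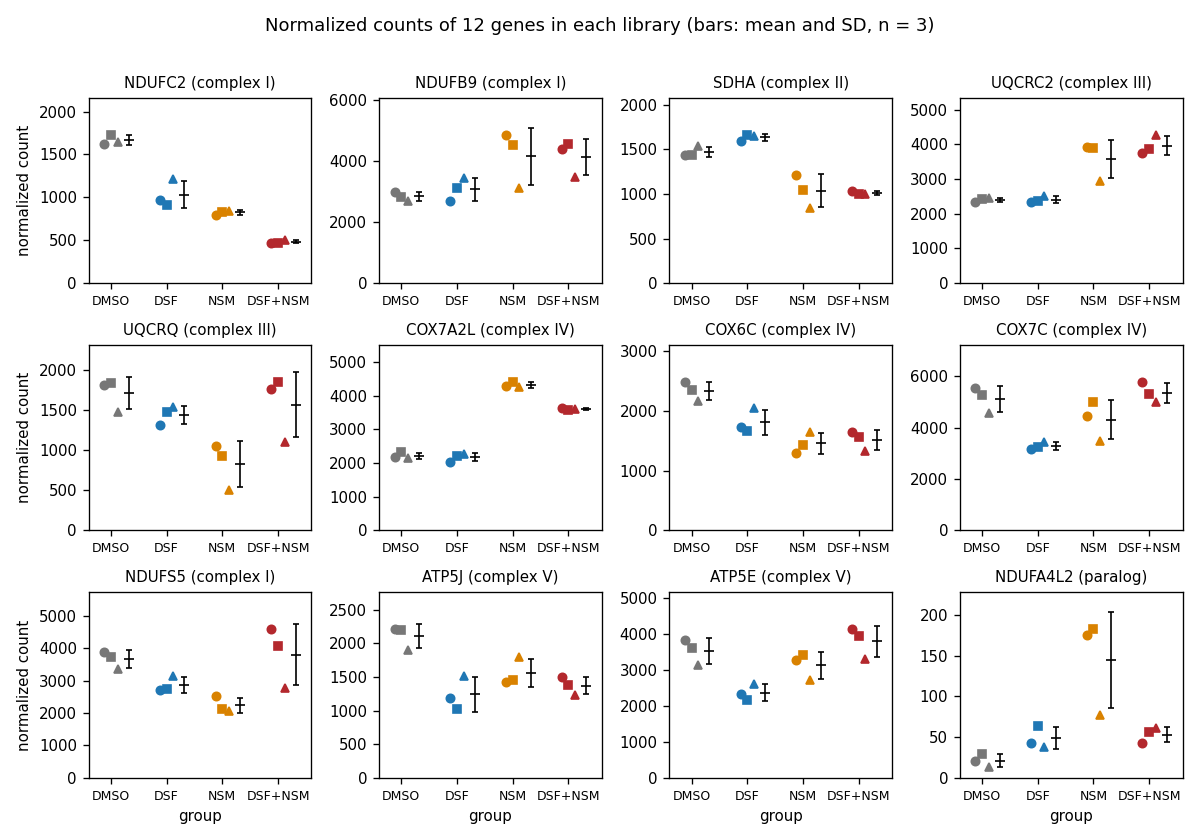
Normalized counts of 12 genes in the 12 libraries, on axes that start at 0. Circles, squares and triangles are replicates 1, 2 and 3, and bars to the right of each group are the mean and SD (n = 3). NDUFC2 is at 1627 to 1730.2 in DMSO and 472 to 506 in DSF+NSM libraries, and COX7A2L at 2154 to 2318 in DMSO and 4260.0 to 4401 in NSM libraries.

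Among the rises in DSF+NSM, UQCRC2 had 3764, 3860.5 and 4282 normalized counts (0.72 ± 0.12, adjusted p = 0.00037, and -0.064 with equal sums). COX7A2L was at 0.70 ± 0.10 (adjusted p = 6.1e-05, and -0.082 with equal sums), and lower than in NSM alone (-0.26, adjusted p = 0.0488). NDUFB9, an accessory subunit of the membrane arm, had 3004, 2836 and 2708 in DMSO and 4399, 4575 and 3469.8 in DSF+NSM libraries (0.53 ± 0.17, adjusted p = 0.0204, and -0.25 with equal sums). In each of these genes the DSF+NSM libraries lay above all DMSO libraries as deposited.

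DSF+NSM was then compared with each drug alone. Against DSF, 14 subunits were higher and 8 lower, with 21.7% and 21.4% of all genes. The higher ones included ATP5H, ATP5E, ATP5C1, COX7B and COX7C, which DSF alone had lowered, and with equal sums 9 of the 14 were below 0 while all 14 stayed above the median of all genes. Against NSM, 8 were higher and 6 lower, with 20.3% and 18.3% of all genes, and 3 of the 8 were below 0 with equal sums. With equal sums the splits were 0 higher and 43 lower against DSF (7.30% and 53.8% of all genes) and 0 higher and 36 lower against NSM (9.83% and 44.9%). Without the third NSM library, 28 were higher and 16 lower against DSF (29.9% and 30.2% of all genes), and 8 higher and 11 lower against NSM (24.7% and 24.4%). Non-overlapping ranges were seen for 29 higher and 19 lower against DSF (31.2% and 31.2% of all genes), and for 10 and 10 against NSM (22.2% and 19.3%). Calls against NSM numbered 8 without the first and 7 without the second DSF+NSM library, with 28.0% and 28.1% of all genes called in either direction.

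The interaction asks whether the DSF+NSM change differs from the sum of both single changes. It was called above 0 for 10 subunits and below 0 for 1, with 12.1% and 14.0% of all genes, and the median over the subunits was 0.31, or 0.29 relative to all genes with equal sums. UQCRQ had 1313, 1467 and 1529.8 in DSF and 1752, 1844 and 1097 in DSF+NSM libraries, and an interaction of 1.20 ± 0.36 (adjusted p = 0.0291). Its DSF+NSM libraries overlapped DMSO, whereas its NSM libraries did not. NDUFS5, an accessory subunit on the intermembrane side of complex I, had 3895, 3725 and 3348 in DMSO, 2709.9, 2749.9 and 3142 in DSF, 2510.3, 2120.2 and 2075 in NSM and 4576, 4071 and 2763 in DSF+NSM libraries (interaction 1.09 ± 0.24, adjusted p = 0.00572). COX7C had 4444, 5006 and 3486 in NSM and 5780.2, 5335 and 4999 in DSF+NSM libraries (interaction 0.96 ± 0.20, adjusted p = 0.00358). For both genes the DSF+NSM libraries overlapped DMSO while the DSF libraries lay below it. NDUFV3, an accessory subunit of the NADH-oxidising arm, had 874, 791 and 796 in DMSO, 684, 695 and 785 in DSF, 920.1, 863 and 1011 in NSM and 455, 595 and 474 in DSF+NSM libraries (interaction -0.69 ± 0.19, adjusted p = 0.02). It was the only subunit called below 0. With equal sums the calls were 1 above and 11 below 0, with 6.81% and 28.6% of all genes. Without the third NSM library they were 20 and 6, with 21.5% and 24.3% of all genes. The count also rested on other single libraries, with 6, 5, 7, 6, 5 and 6 calls in all without the first or second DMSO, the first or second DSF, and the first or second DSF+NSM library. The shares of all genes were 19.4%, 19.7%, 20.2%, 19.4%, 19.6% and 20.4%.

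Among the 9 rows given apart, NDUFA4L2, a paralog of the complex IV subunit NDUFA4 that is known to rise in hypoxia, varied most between groups. It had 20.4, 29.2 and 13.7 normalized counts in DMSO, 43.3, 63.7 and 38.1 in DSF, 176, 182 and 77.2 in NSM and 42.7, 55.7 and 60.8 in DSF+NSM libraries. The change was 1.19 ± 0.37 in DSF (adjusted p = 0.0426), 2.69 ± 0.37 in NSM (adjusted p = 8.59e-05) and 1.34 ± 0.37 in DSF+NSM (adjusted p = 0.0084). DSF+NSM libraries were below all NSM libraries (-1.35, adjusted p = 0.012). The NSM call held with equal sums (2.43), while the DSF change of 1.10 and the DSF+NSM change of 0.58 were not called (adjusted p = 0.0607 and 0.188). NDUFA4 itself had 2331, 2252 and 2063 in DMSO and 1718, 1719 and 1111 in NSM libraries (-0.57 ± 0.15, adjusted p = 0.00838). ATP5SL was called higher in NSM (0.58) and in DSF+NSM (0.83), ATP5S was called lower in NSM (-0.54), and UQCRHL, a retrocopy near-identical to UQCRH, was at 0.53 in DSF+NSM (adjusted p = 0.0114) and reads could be split between both genes by the counting. With equal sums ATP5SL (0.31 in NSM, 0.050 in DSF+NSM) and UQCRHL (-0.25 in DSF+NSM) were not called, and ATP5S was called lower in NSM (-0.81) and in DSF+NSM (-0.90). The read-through genes, the antisense RNAs and the pseudogene UQCRBP1 were not called against DMSO by limma in any of the 3 treatments.

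Factors that build the complexes were read from a list of 54 assembly genes. In DSF, 0 were higher and 10 lower, in NSM 7 and 24, and in DSF+NSM 5 and 27, with median changes of -0.19, -0.39 and -0.43. The shares of all genes called higher and lower were 11.9% and 5.95%, 25.4% and 23.7%, and 28.3% and 24.5%. With equal sums the counts were 4 and 36 in NSM and 0 and 47 in DSF+NSM, and without the third NSM library they were 2 and 18, 11 and 30, and 7 and 33. The median stayed below that of all genes with equal sums (-0.23, -0.41 and -0.47 relative to it). LYRM7, which places the Rieske protein into complex III, had 815, 914 and 923 in DMSO and 296, 270.2 and 317 in DSF+NSM libraries (-1.58 ± 0.27, adjusted p = 0.00036). SCO1, which delivers copper to complex IV, was at -1.41, and NDUFAF6, a complex I assembly factor, at -1.38. COX17, the copper chaperone that hands copper to SCO1, had 729.9, 722 and 603 in DMSO and 1533, 1407 and 1068 in DSF+NSM libraries (0.95 ± 0.17, adjusted p = 0.000469). With equal sums it was at 0.17 and not called (adjusted p = 0.334). ECSIT, a complex I assembly factor, was at 1.15 (0.37 and not called with equal sums), and UQCC1, which acts in complex III assembly, at 0.75 (-0.031 with equal sums).

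Of 14 regulators of these genes, 1 was higher and 2 lower in DSF, 2 and 3 in NSM, and 2 and 5 in DSF+NSM, which can be read against the same shares of all genes. Counts with equal sums were 1 and 5 in NSM and 0 and 8 in DSF+NSM, and without the third NSM library they were 2 and 3, 4 and 4, and 5 and 8. TFB2M, needed to start transcription of mitochondrial DNA, had 262, 296 and 278 in DMSO, 184, 152 and 147 in DSF, 63.8, 89.1 and 83.1 in NSM and 66.5, 58.7 and 66.6 in DSF+NSM libraries (-0.79, -1.82 and -2.11, with adjusted p = 0.0106, 7.04e-06 and 1.38e-06). The coactivators PPRC1 and PPARGC1B were at -1.76 and -1.47 in DSF+NSM. GABPA and GABPB1, which form the factor that binds the ETS motif, were at 0.75 and 0.71 (-0.028 and -0.074 with equal sums). GABPA shares 692 exon bases with ATP5J on the opposite strand, and the library kit does not mark strand, so reads of that stretch cannot be told apart.

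A further 5 subunits have names outside the rule. USMG5, a small membrane subunit of ATP synthase, had 2059.6, 2115 and 1865 in DMSO and 865, 820.1 and 1074 in DSF libraries (-1.14 ± 0.17, adjusted p = 0.00096), a fall greater than that of any of the 76 subunits in DSF. NDUFAB1, the acyl carrier protein of complex I, was at -0.90 in DSF+NSM. C15orf48, a paralog of NDUFA4 known from inflammation, was listed at 0.00 to 5.33 normalized counts in DMSO, 11.0 to 23.9 in DSF, 0.00 to 2.93 in NSM and 38.0 to 49.4 in DSF+NSM libraries. It was called higher in DSF (adjusted p = 0.0135) and in DSF+NSM (adjusted p = 0.000195). NDUFA4L2 was highest in NSM libraries and C15orf48 in DSF+NSM libraries.

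Other large complexes are given for comparison. Shares of all genes called higher and lower were 11.9% and 5.95% in DSF, 25.4% and 23.7% in NSM, and 28.3% and 24.5% in DSF+NSM. Without the third NSM library those shares were 23.5% and 17.6%, 31.2% and 28.6%, and 35.2% and 32.4%. Of 76 mitochondrial ribosomal protein genes, 0 were higher and 17 lower in DSF, 13 and 29 in NSM, and 16 and 27 in DSF+NSM. With equal sums they were 5 and 38 in NSM and 1 and 57 in DSF+NSM, and without the third NSM library 2 and 28, 18 and 31, and 24 and 34. Of 79 cytosolic ribosomal protein genes, 1 was higher and 1 lower in DSF, 53 and 1 in NSM, and 75 and 0 in DSF+NSM, and their median relative to all genes was 0.11, 0.54 and 0.98, or 0.11, 0.53 and 0.97 with equal sums. Their counts with equal sums were 33 and 3 in NSM and 18 and 6 in DSF+NSM (shares of all genes 16.4% and 33.4%, and 11.4% and 56.1%), and without the third NSM library 16 and 5, 75 and 1, and 76 and 1. The mitochondrial ribosomal protein genes stood at -0.27, -0.36 and -0.15 on the same relative scale. The respiratory subunits stood at -0.22, -0.19 and -0.012 on that scale (-0.058 in NSM without the third NSM library, where the cytosolic ribosomal genes were at 0.71). Of the 76 subunits, 25 shared exon bases with another gene on the same strand and 28 on the opposite strand, while 34 shared none. NDUFB2 shares 1239 bases with BRAF and NDUFC1 584 bases with NAA15, both on the opposite strand.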

How the data were processed

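RNA from the 12 SHI-1 libraries was measured by poly(A) RNA sequencing. The authors deposited 1 table per library with a normalized count for each gene (a signal, read counts divided by a library factor), whose header names 24 libraries in the normalization, of which 12 are not used here. According to the study's methods genes were quantified with STAR and Salmon on GRCh38 and analysed with DESeq2, whereas the submitters' processing notes name bcl2fastq 2.19, Trimmomatic, Bowtie2, Picard, featureCounts and DESeq2. Which of these made the tables was not settled. Whole multiples of the smallest step (tolerance 0.01 of a step) made up 32.5% to 33.0% of the values above 0, so reads were not recovered, and the depth is the sum divided by that step. The kit does not mark strand.

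After a filter that asked for at least 10 in 3 or more libraries, log2(value + 1) was fitted with limma 3.58.1 in R 4.3.3 (trend, robust empirical Bayes, means of 4 groups over 12 libraries, two-sided, Benjamini-Hochberg over 13502 genes, threshold 0.05). The fit was checked on simulated data in which each gene had the same spread in all libraries. That check does not cover a library that stands apart, such as the third NSM library. A pseudocount of 1 shrinks fold changes of low genes. The interaction is the DSF+NSM change minus both single changes. Deviations of same-numbered libraries from their group means correlated weakly (median 0.057, against -0.026 for other pairs between groups). The study's methods name no pairing, and libraries were fitted unpaired. Transcript GC content, length and exons came from GENCODE 44, and promoters from RefSeq. Alternatives were other scalings, pseudocounts and filters, only the groups compared, library weights, a replicate block, removal of a GC and length trend, and leaving out each library.

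The members and lists were chosen with earlier results of these data known. Named genes are, in each complex, the members with the largest called rise and fall in NSM and in DSF+NSM, the 3 with the greatest interaction, core subunits and paralog groups. Members described for DSF and the groups within complexes I, III and V were chosen after their values were seen. In the text and in the plot of subunits by library, 1 subunit is not reported, although counts and medians include it. Python 3.11.15 with pandas 2.3.3 was used for summaries.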

Additional observations from a re-analysis of the deposited data

Results flagged for a closer look

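A test of the interaction term itself marked 11 of the 76 subunits as changing in DSF+NSM by another amount than the sum of both single changes (limma over all genes, adjusted p under 0.05, with 12.1% of all genes called above and 14.0% below 0). The values above 0 were 1.20 for UQCRQ, 1.09 for NDUFS5, 0.96 for COX7C, 0.90 for NDUFB6, 0.85 for ATP5E, 0.82 for NDUFB1, 0.76 for ATP5H, 0.64 for NDUFB3, 0.61 for COX7B and 0.51 for UQCRH, on the log2 scale. The value for NDUFV3 was -0.69. With equal sums 2 of these 11 subunits stayed called by limma. The 10 values above 0 all kept their sign there, but only NDUFS5 was called (adjusted p = 0.0239). UQCRQ and COX7C, for example, were not (adjusted p = 0.101 and 0.0507). After removal of the GC and length trend, 4 of the 11 stayed called. Outside the subunits, the paralog NDUFA4L2 was at -2.54.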

How the results depend on the processing

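Calls among the 76 subunits depended on the fit. With only the groups compared they numbered 41 in DSF, 20 in NSM, 46 in DSF+NSM, 34 for DSF+NSM against DSF and 3 against NSM. With library weights they numbered 45, 56, 57, 52, 29 and, for the interaction, 40. After removal of the GC and length trend they numbered 26 in DSF, 41 in NSM, 45 in DSF+NSM, 35 against DSF, 36 against NSM and 15 for the interaction. With equal sums they numbered 64 in DSF+NSM, 43 against DSF and 36 against NSM. Without replicate 3 of NSM and of DSF+NSM, a setting chosen after seeing the data, they numbered 41, 55, 59, 52, 33 and 42. Leaving out each library in turn gave 3 to 25 in DSF, 22 to 45 in NSM, 20 to 51 in DSF+NSM, 15 to 44 against DSF, 7 to 19 against NSM and 5 to 26 for the interaction. The highest counts were those without NSM replicate 3. For settings whose share of all genes is not given above, these counts cannot be read as particular to the subunits. The causes were not tested.

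Medians relative to all genes that moved beyond the spread were, after removal of the GC and length trend, complex I in DSF+NSM (-0.48), complex II in DSF (0.12), complex III in DSF (-0.025) and in DSF+NSM (0.059), complex IV in DSF+NSM (-0.11) and complex V in DSF (-0.17). Complex II in NSM was at -0.40 with at least 10 in every library, -0.44 with library weights, -0.43 without replicate 3 of NSM and of DSF+NSM, and -0.43 to -0.32 leaving out each library. Complex III in DSF+NSM was at 0.034 with at least 10 in every library, 0.043 without replicate 3 of both groups and -0.054 to 0.043 leaving out each library.

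Signs turned with equal sums in DSF+NSM against DMSO for NDUFB9 (-0.25), UQCRC2 (-0.064), COX7A2L (-0.082), UQCRB (-0.093), COX6A1 (-0.27), UQCC1 (-0.031), GABPA (-0.028) and GABPB1 (-0.074). Against DSF they turned for NDUFB5 (-0.044), COX6A1 (-0.14), COX17 (-0.014) and UQCC1 (-0.020). Without the GC and length trend they turned for NDUFB9 (-0.034) and COX6A1 (-0.22). Over 92 named results, 1954 values kept direction and side of the threshold, 140 kept direction only and 14 turned.

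With the replicate number as a block, calls numbered 11, 33, 28, 26, 13 and 12 for DSF, NSM, DSF+NSM, DSF+NSM against DSF, against NSM and the interaction. Correlations of same-numbered libraries were -0.06 to 0.28 and those of other pairs between groups -0.23 to 0.24. Of 12 libraries, 7 correlated best with their own number. These values do not settle whether equal numbers mark a shared experiment, and the main fit leaves the libraries unpaired. All subunits had at least 224 normalized counts in every library, so depth limits mainly the low rows given apart.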
